A study of Mus musculus with 4 samples.

Results

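The 34 genes described here encode the integrin chains of the mouse, a set of adhesion receptors and ligands, and 3 proteins that couple integrins to actin. They were chosen by symbol, as 18 alpha chains, 8 beta chains, 5 other surface molecules and 3 adaptors, by a rule that sets no level, and all 34 were found among the 50600 genes of the tables. The libraries were made from regulatory T cells, the CD4+ lymphocytes that depend on the factor Foxp3 and restrain immune responses. There are 4 biosamples of these primary cells from C57BL/6NJ mice, all in 1 group, so no other cell type, genotype or treatment is set against them. The labels give no age, record the sex as not collected, link a CD4+ T cell differentiation protocol and share 1 donor record among the biosamples, while the headers of the count tables carry the words activated and 48h. The assay is labelled total RNA-seq, and the linked library protocol is named for polyA+ RNA. Nothing in the labels says that the biosamples came from separate animals or cultures. Each SD below therefore measures only the spread between these libraries, and each p holds for these libraries and not for animals.

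Integrins are receptors built from an alpha and a beta chain, and a cell can display a pair only when it makes both chains. Leukocytes carry the beta 2 integrins, among them LFA-1, which binds intercellular adhesion molecules on other cells and helps form the immune synapse. Lymphocytes that enter the gut use beta 7 integrins, and many cell types use beta 1 integrins to bind matrix. Talin and kindlin bind the tails of beta chains and switch integrins to the state that binds ligand, and vinculin links talin to actin.

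The libraries held between 43821767 and 73819468 counts. Levels are given in TPM, a transcript level made by dividing counts by the summed exon length of the gene and scaling every library to the same total. A gene is called expressed where its TPM reached 1 in each of the 4 libraries. The genes listed for regulatory T cells, Foxp3, Il2ra, Ctla4, Ikzf2, Tnfrsf18, Cd3e and Cd4, were all expressed. Il2ra was the highest at 1488 ± 19.4, followed by Cd4 at 611 ± 25.4 and Tnfrsf18 at 580.2 ± 18.2 TPM (SD, n = 4). Foxp3 was at 289 ± 23.5 TPM, and Ikzf2 was the lowest at 13.2 ± 1.99 TPM. Libraries 1 and 2 stood apart from libraries 3 and 4 in the RNA that silences an X chromosome, Xist, with 172, 145, 0.255 and 0.367 TPM in replicates 1 to 4, and in the Y-linked gene Ddx3y, with 0.152, 0.0781, 45.1 and 45.0 TPM. The 4 libraries are therefore not repeats of a single source, while within each of these pairs a shared source is possible. Replicates 1 and 2 lay wholly above or wholly below replicates 3 and 4 in 5 of the 20 expressed genes described here, beside 27.5% of all 11593 expressed genes. They were above in Itga4 and Vcl and below in Itga3, Itgb5 and Pecam1. Of the genes not expressed, which the 27.5% does not cover, they were above in Itgae and below in Itga7 and Itga2b. Those genes had 24 to 40, 6 to 59 and 28 to 110 counts per library. No share over all genes at such low levels is given here, so their separation is not read as a result about them. The part of the difference in Xist and Ddx3y in these results was not tested.

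Of the 34 genes, 20 were expressed, 8 were at 100 TPM or more in each library and 4 had no count in any. Among all genes in the tables, 22.9% were expressed and 3.98% reached 100 TPM, and among protein-coding genes 47.2% and 9.09% did. The median of the 34 mean levels was 2.85 TPM, against 0.691 TPM over all protein-coding genes. The 34 genes together made up 0.288 ± 0.013% of TPM. Expression was concentrated in few chains. Of the 18 alpha chains 7 were expressed, and of the 8 beta chains 5 were. Itgal alone held 82.7 ± 0.92% of the summed alpha-chain TPM, which came to 587 ± 40.6 TPM. Itgb2, Itgb1 and Itgb7 held 62.7 ± 0.76%, 23.6 ± 0.78% and 13.2 ± 0.52% of the summed beta-chain TPM, which came to 996 ± 37.7 TPM.

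**Figure D1:**
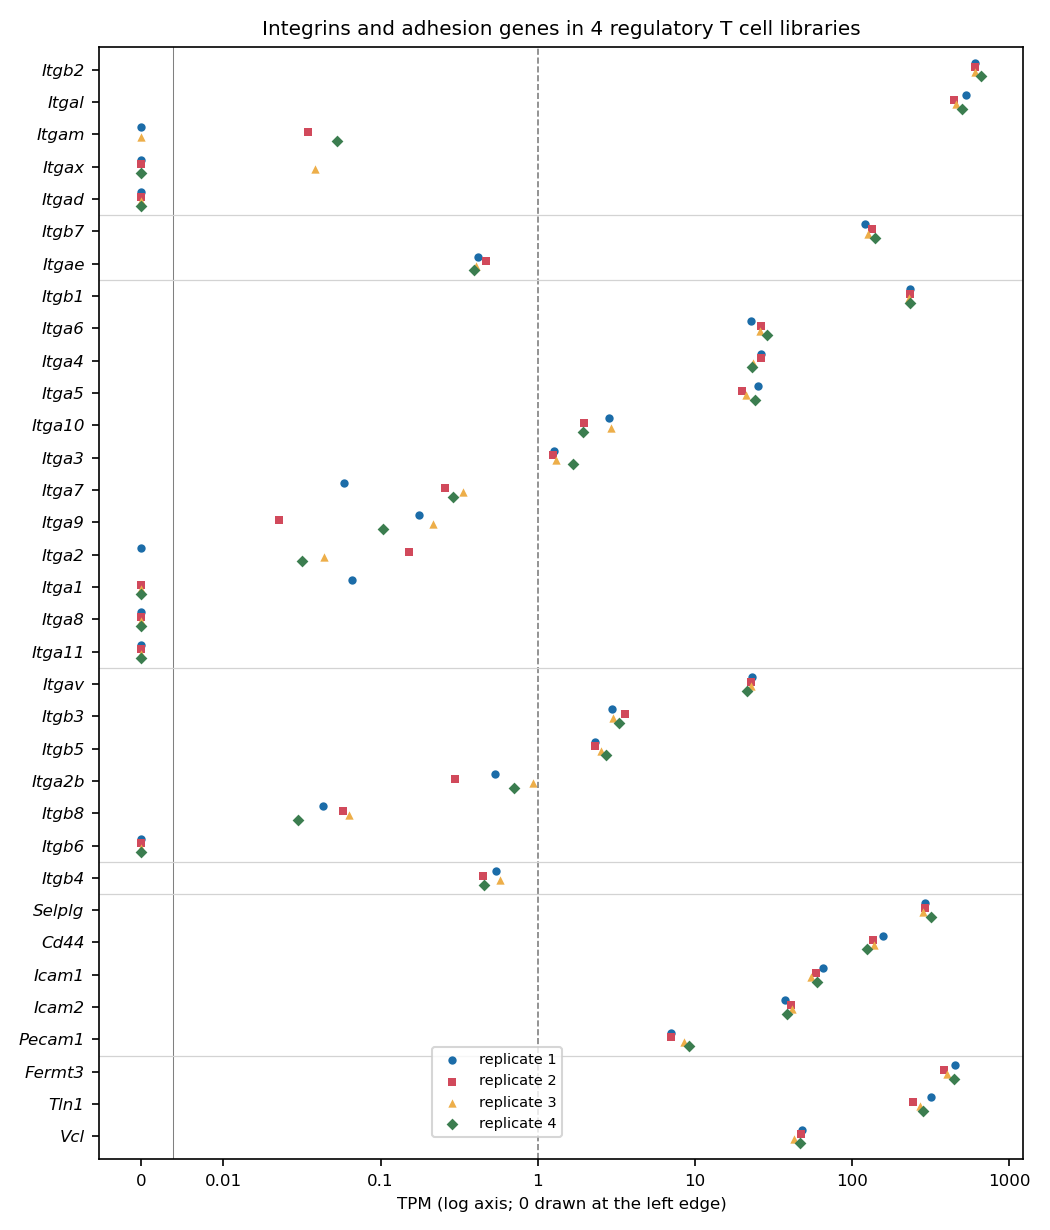
TPM on a log axis for each of the 34 genes, grouped by role, with 1 point for each of the 4 libraries and genes without a count drawn left of the thin line; the dashed line marks a TPM of 1. Itgb2 and Itgal lie at the upper end and the other alpha chains of the beta 2 family at or near 0.

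**Figure D2:**
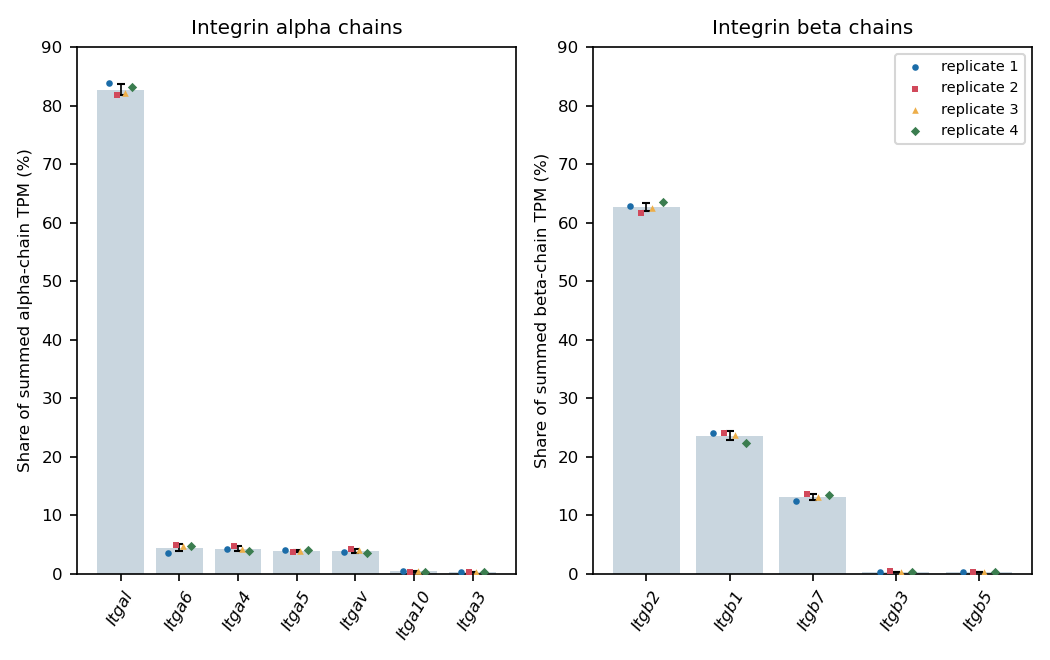
Share of the summed alpha-chain TPM (left) and beta-chain TPM (right) held by each chain with a mean share of at least 0.2%; bars are means, error bars SD and points the 4 libraries. Itgal holds 82.7% of the alpha chains, and Itgb2, Itgb1 and Itgb7 together nearly all of the beta chains.

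The chains of LFA-1 were the most abundant integrin transcripts, and the remaining alpha chains of the family were almost absent. Itgb2 (ENSMUSG00000000290.13, chr10:77530252-77565708 of mm10, plus strand), the beta chain shared by the family, had 611, 607, 609 and 668 TPM in replicates 1 to 4. Replicate 4 was the highest and the other 3 lay close together. Its mean of 624 ± 29.6 TPM exceeded 99.1% of protein-coding genes. Itgal (ENSMUSG00000030830.18, chr7:127296260-127335138, plus strand), the alpha chain of LFA-1, had 531, 449, 458 and 505 TPM, a mean of 486 ± 39.0. Its range lay wholly below that of Itgb2.

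Itgam, the alpha chain of the macrophage receptor Mac-1, had 0, 3, 0 and 4 counts in replicates 1 to 4, and Itgax, which marks dendritic cells, had 0, 0, 4 and 0. Itgad had no count in any library. Its floor, the level of 3 counts in the library where that is highest, was 0.0527 TPM. Itgal stood 15435-fold above the sum of these 3 chains on mean TPM, with an exact 95% Poisson interval of 8626 to 30920 from the 11 counts of the 3 chains, which covers counting error only. Itgam shares 68.7% of its exon bases with Gm49368 on the same strand, and fragments there are not assigned to either gene. Over the 1574 bases that Itgam does not share, with the scaling left unchanged, its mean was 0.0698 TPM, and Gm49368 itself had 0 counts. With the deposited lengths and 1 library set at its floor, the mean log2 ratio of Itgal to the 3 chains was 13.43, or 11049-fold. Single libraries ran from 9562- to 12974-fold. With the bases not shared as lengths, a setting chosen after seeing the data, the mean log2 ratio was 12.21, or 4753-fold. Of the 12 markers of macrophages and dendritic cells, 2 were expressed, Cd68 at 4.23 ± 0.99 and Adgre1 at 1.30 ± 0.33 TPM. Their summed level was 4.55 to 6.72 TPM, and Lyz2, Clec9a, Cd209a, Fcgr1 and C1qa had 0 counts. In these bulk libraries, fewer cells of a type and less RNA per cell cannot be told apart.

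Within each library Itgb2 exceeded the sum of its alpha chains by little. The ratio was 1.15, 1.35, 1.33 and 1.32 in replicates 1 to 4, a mean of 0.36 ± 0.11 on the log2 scale, with all 4 libraries over 1. A two-sided permutation test, exact over sign flips, gave p = 0.13 (0.14 adjusted over the 12 ratios), the smallest that 4 libraries allow, and gave the same for every other ratio unless stated. The deposited exon length of Itgal is 6569 bases, while its longest coding transcript in GENCODE M21 has 5222. With the longest coding transcripts as lengths, the ratio was 1.05 and lay above 1 in 3 of 4 libraries.

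The beta 7 family was represented by its shared chain and by Itga4. Itgb7 (ENSMUSG00000001281.9, chr15:102215995-102231935, minus strand) had 121, 134, 128 and 141 TPM, a mean of 131 ± 8.56. Itgae, the CD103 chain that pairs with beta 7 to bind E-cadherin, had 0.415, 0.468, 0.403 and 0.391 TPM from 24 to 40 counts, so that no library came near a TPM of 1. Itga4 (chr2:79255426-79333123, plus strand), which pairs with beta 7 to bind the gut vessel ligand MAdCAM-1 and with beta 1 to bind VCAM-1, had 26.3, 26.4, 23.3 and 23.1 TPM. Replicates 1 and 2 lay above replicates 3 and 4 without overlap, a split seen in either direction in 27.5% of all expressed genes.

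Itga4 exceeded Itgae 56.3- to 63.4-fold, and Itgb7 exceeded the sum of both partners 4.54- to 6.02-fold, in 4 of 4 libraries each. Itgb7 in turn stood below Itgb1, the other partner of Itga4, at 0.518 to 0.599 times its level in 4 of 4 libraries. In counts not divided by length, which favour the long Itga4 transcript of 13978 exon bases, the mean ratio of Itgb7 to both partners was 1.03, above 1 in 2 of 4 libraries.

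RefSeq windows before the transcription start were matched by symbol for 23 of the 34 genes, on GRCm38.p6. The 250 bases before the start are shown for Fermt3, Itgb7 and Itga4, which were expressed, and for Itgam and Itgax, the family members near 0, so that the start regions can be set beside the levels. Capitals mark matches to GGAAG, the core bound by ETS factors, or to TGTGGT, the core bound by Runx factors, on either strand, with no overlapping matches in these windows.
Fermt3 (chr19:7019470-7019719, minus strand): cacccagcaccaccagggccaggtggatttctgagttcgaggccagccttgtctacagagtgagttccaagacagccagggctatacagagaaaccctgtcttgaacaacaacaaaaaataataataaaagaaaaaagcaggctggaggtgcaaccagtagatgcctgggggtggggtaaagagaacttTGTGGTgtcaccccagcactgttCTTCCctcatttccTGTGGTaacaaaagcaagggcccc
Itgb7 (chr15:102231936-102232185, minus strand): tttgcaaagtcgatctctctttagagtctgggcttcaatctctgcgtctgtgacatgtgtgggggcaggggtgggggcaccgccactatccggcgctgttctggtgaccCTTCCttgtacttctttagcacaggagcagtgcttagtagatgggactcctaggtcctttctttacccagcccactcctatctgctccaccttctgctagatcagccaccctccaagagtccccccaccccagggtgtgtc
Itga4 (chr2:79255176-79255425, plus strand): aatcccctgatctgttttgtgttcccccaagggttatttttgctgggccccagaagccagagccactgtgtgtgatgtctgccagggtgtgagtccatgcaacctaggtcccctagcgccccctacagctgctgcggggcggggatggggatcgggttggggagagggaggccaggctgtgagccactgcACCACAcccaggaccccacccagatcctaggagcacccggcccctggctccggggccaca
Itgam (chr7:128062390-128062639, plus strand): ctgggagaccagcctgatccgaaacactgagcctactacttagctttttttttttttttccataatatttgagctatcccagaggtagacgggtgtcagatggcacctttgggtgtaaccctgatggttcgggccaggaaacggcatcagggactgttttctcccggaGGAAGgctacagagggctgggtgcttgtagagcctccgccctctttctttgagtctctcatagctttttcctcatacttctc
Itgax (chr7:128129300-128129549, plus strand): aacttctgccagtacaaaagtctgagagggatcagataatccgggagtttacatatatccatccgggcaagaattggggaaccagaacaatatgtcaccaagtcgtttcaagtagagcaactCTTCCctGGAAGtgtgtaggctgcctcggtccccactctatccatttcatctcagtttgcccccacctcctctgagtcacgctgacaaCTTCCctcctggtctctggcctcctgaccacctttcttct
TGTGGT occurred 2 times in the Fermt3 window and 1 time in that of Itga4, and not in the other 3. Of all 32851 windows of this length, 14.05% held it, as did 3 of the 25 windows of the 23 genes. GGAAG occurred 1 time in Fermt3, 1 time in Itgb7, 1 time in Itgam and 3 times in Itgax, and 64.1% of all windows held it, as did 17 of the 25. The windows had 1 CpG in Fermt3, 5 in Itgb7, 6 in Itga4, 6 in Itgam and 5 in Itgax, beside a median of 6 over all windows. These matches are letters in a window and show no binding.

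Among Itga1 to Itga11, the alpha chains set beside Itgb1 here, 3 made up most of the TPM. Itgav, which can also pair with Itgb1, is outside this group and stood at 22.5 ± 0.69 TPM. Itgb1 (ENSMUSG00000025809.15, chr8:128685654-128733200, plus strand) had 235, 236, 231 and 236 TPM, a mean of 234 ± 2.18, and its coefficient of variation of 0.929% was the lowest of the 20 expressed genes. Itga6, a chain of laminin receptors, had 22.9, 26.6, 25.9 and 28.7 TPM, with replicate 1 the lowest. Itga5, the chain of the fibronectin receptor, had 25.2, 19.98, 21.3 and 24.1 TPM. Itga4, Itga5 and Itga6 overlapped in range and together made up 94.5 ± 0.71% of the TPM of Itga1 to Itga11. Their order is not settled by these libraries. Itga4 stood above Itga5 in 3 of 4 libraries, by 0.13 ± 0.20 on the log2 scale (p = 0.375, exact sign-flip permutation test), and with the longest coding transcripts as lengths by 0.63 in 4 of 4.

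Itga10 and Itga3, chains of collagen and laminin receptors, were low but expressed. Itga10 had 2.84, 1.97, 2.92 and 1.95 TPM, with replicates 1 and 3 above replicates 2 and 4, and its coefficient of variation of 22.1% was the highest of the expressed genes. It shares 33.5% of its exon bases with Gm42957 on the same strand, which had 12 counts in all. Itga3 had 1.26, 1.25, 1.30 and 1.67 TPM. The collagen receptor chains Itga1 and Itga2 had 5 and 17 counts over all libraries, with the counts of Itga1 all in replicate 1. Itga7, a laminin receptor chain of muscle, had 6 to 59 counts per library and Itga9 had 3 to 36, at means of 0.235 ± 0.122 and 0.129 ± 0.085 TPM. Itga8 and Itga11 had 0 counts, against floors of 0.0322 and 0.0463 TPM. Itgb1 exceeded the sum of these 11 alpha chains 2.95- to 3.08-fold, in 4 of 4 libraries. The size of this ratio depends on the length used. Its mean was 2.13 with the longest coding transcripts as lengths and 1.36 in counts not divided by length, above 1 in 4 of 4 libraries each.

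**Figure D3:**
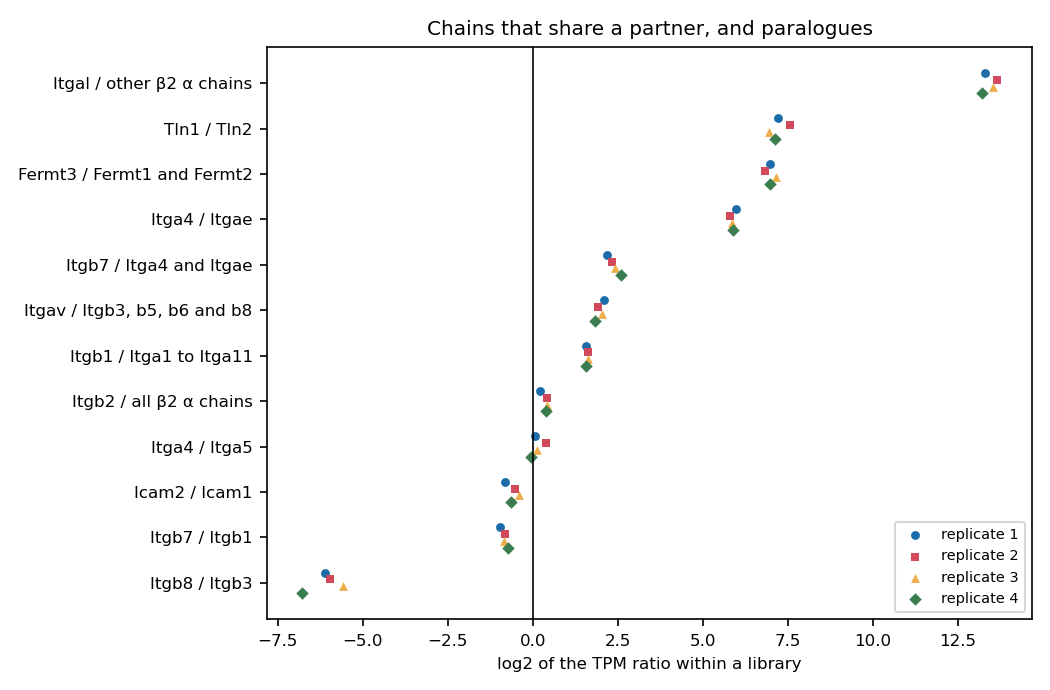
Log2 of the TPM ratio within each library for chains that share a partner and for paralogues, with 1 point per library; the vertical line marks equal levels. For the top row replicate 1 has no count of the other alpha chains and 3 counts were used in their place. In 11 of the 12 ratios all 4 libraries lie on the same side of the line, the exception being Itga4 over Itga5.

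The alpha v chain was expressed, and the levels of 4 of its beta partners, Itgb3, Itgb5, Itgb6 and Itgb8, were low, while Itgb1, which can also pair with it, was described above. Itgav, which pairs with several beta chains to bind matrix and latent transforming growth factor beta, had 23.0, 22.7, 22.8 and 21.5 TPM, a mean of 22.5 ± 0.69. Itgb3 and Itgb5, partners in vitronectin receptors, had 2.97, 3.62, 3.01 and 3.32 TPM and 2.33, 2.31, 2.54 and 2.72 TPM. Itgb8, whose pair with alpha v activates latent transforming growth factor beta, had 6, 11, 15 and 5 counts, a mean of 0.0483 ± 0.0148 TPM. Its ligand gene Tgfb1 stood at 302 ± 7.0 TPM. Itgb6, an epithelial partner of the same kind, had no count, against a floor of 0.0334 TPM. Itgb8 stood at 0.00904 to 0.0208 times the level of Itgb3, and Itgav exceeded the sum of Itgb3, Itgb5, Itgb6 and Itgb8 3.54- to 4.31-fold, in 4 of 4 libraries each.

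Itga2b, the platelet chain that pairs with Itgb3, had 0.537, 0.298, 0.932 and 0.706 TPM. Replicate 2 was the lowest and no library reached a TPM of 1. None of the 10 platelet and megakaryocyte markers was expressed. Their summed level was 0.105 to 0.386 TPM, Ppbp, Gp1ba, Gp1bb, Gp9, Gp6, Tubb1 and Treml1 had 0 counts, and Pf4 was at 0.0824 ± 0.165 and Vwf at 0.00288 ± 0.00575 TPM. Itgb4, the hemidesmosome chain of epithelia, was at 0.505 ± 0.0656 TPM. None of the 12 stromal and epithelial markers was expressed, with a summed level of 2.31 to 3.33 TPM, led by Epcam at 0.727 ± 0.31, Cdh1 at 0.625 ± 0.204 and Krt18 at 0.575 ± 0.299, while Col3a1, Dcn, Krt8 and Krt5 had 0 counts.

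All 5 of the other surface molecules were expressed. Selplg, which encodes the selectin ligand PSGL-1, had 293, 292, 284 and 318 TPM, a mean of 297 ± 14.8, with replicate 4 above the rest. With its longest coding transcript as length, and the scaling from the deposited lengths of all genes kept, its mean was 684. Values of this kind are not rescaled to the common total, so they are not TPM in the strict sense. Cd44, the hyaluronan receptor, had 158, 136, 139 and 125 TPM, highest in replicate 1 and lowest in replicate 4. The LFA-1 ligands Icam1 and Icam2 were both present in the libraries with the LFA-1 chains. Icam1 had 66.0, 59.2, 54.7 and 59.7 TPM and Icam2 37.4, 41.3, 41.4 and 38.7 TPM. The ranges did not overlap, and Icam2 stood at 0.567 to 0.756 times the level of Icam1 in 4 of 4 libraries.

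Pecam1, a homophilic adhesion molecule of endothelium, platelets and some leukocytes, had 7.08, 7.05, 8.58 and 9.25 TPM. Replicates 3 and 4 lay above replicates 1 and 2 without overlap, and 27.5% of all expressed genes were split in this way in either direction. Of 10 endothelial markers only Egfl7 was expressed, at 8.21 ± 0.368 TPM, and the list summed to 8.16 to 8.88 TPM. Robo4 and Cdh5 followed at 0.137 ± 0.0765 and 0.0283 ± 0.0565 TPM, and Tie1, Tek, Emcn, Esam, Plvap and Cldn5 had 0 counts.

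Of the adaptors, Fermt3 and Tln1 were among the 5 highest of the 34 genes and Vcl was lower. Fermt3, the kindlin of blood cells (ENSMUSG00000024965.8, chr19:6998958-7019469, minus strand), had 454, 385, 405 and 450 TPM, and Tln1, the main talin of blood cells (ENSMUSG00000028465.16, chr4:43531519-43562691, minus strand), had 318, 244, 271 and 285. In both, replicate 1 was the highest and replicate 2 the lowest. Vcl, which encodes vinculin, had 48.4, 47.8, 42.7 and 46.9 TPM. Paralogues were far lower. Fermt3 exceeded the sum of Fermt1 and Fermt2 115- to 142-fold, and Tln1 exceeded Tln2 124- to 191-fold, in 4 of 4 libraries each.

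Ordered by mean TPM with the deposited exon lengths, the 20 expressed genes ran Itgb2, Itgal, Fermt3, Selplg, Tln1, Itgb1, Cd44, Itgb7, Icam1, Vcl, Icam2, Itga6, Itga4, Itga5, Itgav, Pecam1, Itgb3, Itgb5, Itga10 and Itga3. In 7 of the 19 neighbouring pairs the ranges over the libraries overlapped, namely Itgal and Fermt3, Selplg and Tln1, Cd44 and Itgb7, Itga6 and Itga4, Itga4 and Itga5, Itga5 and Itgav, and Itgb5 and Itga10. The order depends on the length used. With the longest coding transcripts as lengths, and the scaling from the deposited lengths kept, Selplg at 684 stood above Itgb2 at 641 and Itgal at 611. Icam1 was then at 103, Itga6 at 54.5, Itgav at 34.3 and Pecam1 at 14.5. These values rank the genes among themselves and are not rescaled TPM.

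The median coefficient of variation of the 20 expressed genes was 7.95%, against 6.52% over all 11593 expressed genes. Without replicate 1 that of the 20 genes was 6.20%. The median over all genes is not given for that setting, so 6.20% cannot be set against 6.52%. Each replicate was set against the other 3 by edgeR's quasi-likelihood test, which compares libraries and not conditions. Of the 34 genes 23 passed the filter on low counts, and 0 of the 23 were called in any of the 4 replicates at a Benjamini-Hochberg adjusted p of 0.05 over all 12917 genes tested. The share of all genes called was 0.0697% for replicate 1 and 0.0232% for replicate 3, and 0% for replicates 2 and 4. The log2 differences of the 23 genes ran from -0.28 to 0.30 in replicate 1 and from -1.29 to 0.23 in replicate 2. They ran from -0.16 to 0.87 in replicate 3 and from -0.41 to 0.39 in replicate 4.

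The differences nearest to the threshold were in replicate 1. Tln1 was at 318 TPM in replicate 1, against a mean of 267 in the other 3, a log2 difference of 0.25 (SE 0.08) with an adjusted p of 0.24 in edgeR. Cd44 was at 158 against 133 TPM, a log2 difference of 0.24 (SE 0.09, adjusted p 0.34 in edgeR). Itga6 was at 22.9 against 27.1 TPM, a log2 difference of -0.25 (SE 0.09, adjusted p 0.32 in edgeR). Itgal and Icam1 had log2 differences of 0.17 and 0.18 with adjusted p of 0.43 and 0.47 in edgeR. In replicate 2, Tln1 was lower by a log2 difference of -0.25 (SE 0.08) and Itga2b by -1.29 (SE 0.50), with adjusted p of 0.67 for each in edgeR. In each of these 7 comparisons the replicate was the highest or the lowest of the 4. The comparisons were picked for a small unadjusted p in edgeR, which favours such a position, so it is no further evidence.

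Without replicate 4, the log2 differences of replicate 1 were 0.29 for Tln1 and 0.22 for Itgal, against 0.25 and 0.17 with all 4 libraries. Tln1 and Itgal passed the threshold in replicate 1 only in that setting, in which more of all genes passed as well. That setting compares a single library with fewer others, so the calls are not read as a result about these genes.

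**Figure D4:**
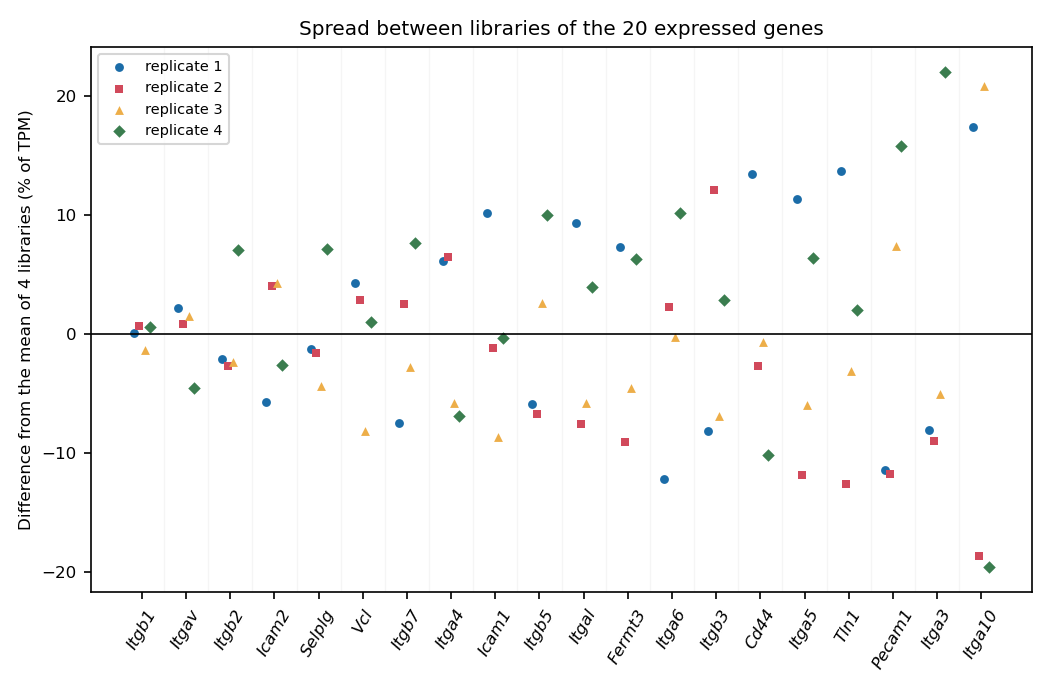
Difference of each library from the mean of the 4, in percent of TPM, for the 20 expressed genes ordered by their coefficient of variation. Itgb1 varies least (0.929%) and Itga10 most (22.1%), and replicate 1 is the highest library for Tln1, Cd44, Itgal and Icam1.

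Among lists of genes that act beside these receptors, the expressed share ran from 4 of 16 counter-ligands to 18 of 20 genes of integrin activation. Of the 104 genes on 6 lists of the adhesion pathway, 103 were found and 73 were expressed, beside 22.9% of all genes and 47.2% of protein-coding genes. Of the 20 genes of integrin activation 18 were expressed, 9 of them above 100 TPM. The phosphatase Ptpn6 at 538 ± 27.3, the small GTPase Rap1b at 491 ± 27.8 and the actin cross-linker Flna, which competes with talin for beta tails, at 421 ± 38.6 TPM led, and Fermt2 was the lowest at 0.229 ± 0.159. Of the 24 genes of the adhesion complex 19 were expressed. Actin regulator Vasp was at 629 ± 25.2, Actn4 at 312 ± 19.7 and Parvg, the parvin of blood cells, at 285 ± 11.3 TPM, while its paralogue Parva had 0 counts against a floor of 0.0234 TPM.

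**Figure D5:**
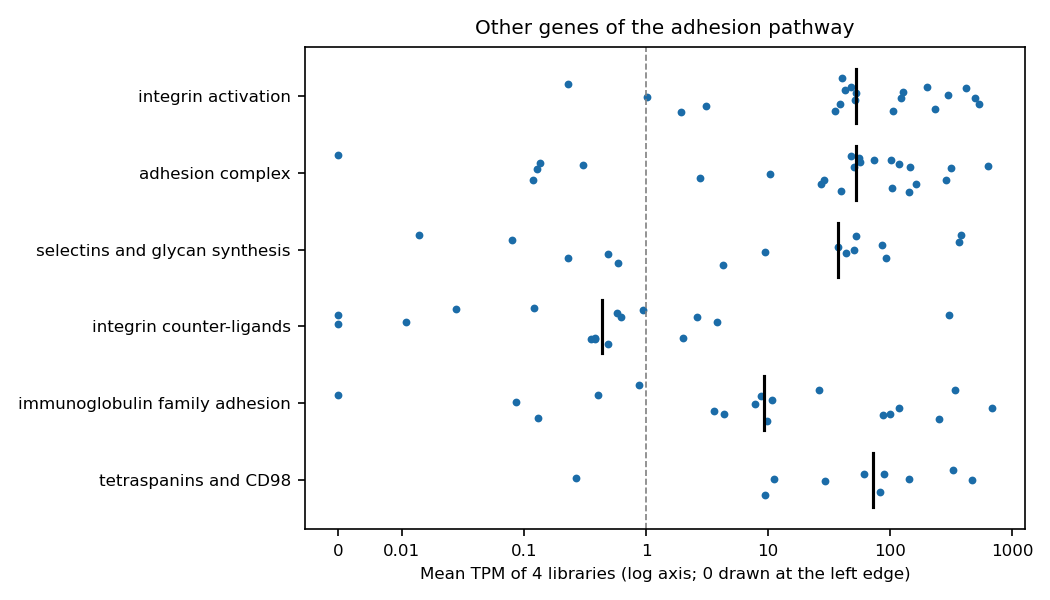
Mean TPM of 4 libraries on a log axis for each gene of 6 adhesion pathway lists, with genes at 0 drawn at the left edge; black bars are list medians and the dashed line marks a TPM of 1. The integrin counter-ligands have the lowest median, 0.437 TPM, and the other lists have medians from 9.28 to 71.7 TPM.

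Among 15 selectins and enzymes of their ligands, 10 were expressed, led by the sialomucin Spn at 378 ± 20.1, the galactosyltransferase B4galt1 at 365 ± 19.8 and Glg1 at 92.0 ± 3.49 TPM, with the endothelial selectin Sele lowest at 0.0139 ± 0.0188 from 3 counts. Genes chosen after their values were seen were Fut7, the fucosyltransferase that completes selectin ligands on PSGL-1, at 52.6 ± 4.80 TPM, and Gcnt1, which branches its glycans, at 0.491 ± 0.195 TPM. Of 16 counter-ligands of integrins 4 were expressed, beside 22.9% of all genes and 47.2% of protein-coding genes. Tgfb1 led, followed by the laminin chain Lama5 at 3.78 ± 0.946 and fibronectin, Fn1, at 2.60 ± 0.639 TPM, and Tnc and Vtn had 0 counts. The ligands of the Itga4 and Itgae pairs, named after their values were seen, were at 2.02 ± 0.222 for Vcam1, 0.381 ± 0.288 for Madcam1 and 0.625 ± 0.204 TPM for Cdh1.

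Of 18 immunoglobulin family adhesion genes found 13 were expressed. Cd2 at 684 ± 53.6 and Cd48, its ligand in the mouse, at 253 ± 5.76 TPM were among the highest with Cd6 at 338 ± 26.0, and the neural Ncam1 had 0 counts. Of 10 tetraspanins and the integrin-associated CD98 chain, 9 were expressed, led by Cd82 at 465 ± 4.73, Slc3a2, the CD98 heavy chain, at 328 ± 17.1 and Cd53 at 142 ± 14.5 TPM, with Cd63 lowest at 0.268 ± 0.118.

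Markers of other blood cells that carry these integrins were scarce. Of 9 B cell markers Cd79b was expressed at 3.11 ± 0.466, followed by Cd79a at 0.395 ± 0.124 and Blnk at 0.373 ± 0.307, and the list summed to 3.61 to 4.37 TPM. Of 10 markers of CD8 T and natural killer cells Cd8b1 was expressed at 11.7 ± 1.75, with Eomes at 1.20 ± 0.351 and Gzmb at 0.793 ± 0.685, a sum of 12.1 to 16.1 TPM, and Ncr1 and Klra8 had 0 counts. None of the 10 granulocyte and mast cell markers was expressed, led by Siglecf at 0.313 ± 0.136, Cma1 at 0.0430 ± 0.0860 and Ngp at 0.0136 ± 0.0272, a sum of 0.142 to 0.483 TPM, and S100a8, S100a9, Elane, Mpo, Camp and Retnlg had 0 counts.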

How the data were processed

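RNA of 4 biosamples was sequenced, and the deposited tables hold raw fragment counts per gene that the authors obtained from featureCounts 1.4.6-p4 on mm10 alignments with GENCODE M13, per the file headers and the labels: paired fragments with both ends aligned, reverse strand, exons summed per gene. Fragments that align to several places or fall in exons of 2 genes on the same strand were not counted under the header's settings, so genes with shared exons can be undercounted. The deposited length is the summed exon length. Sources used here do not give the aligner's version.

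Counts entered the tests as deposited, and TPM was computed from them. Symbols came from GENCODE M21 for 50376 of 50600 genes. The 34 members, the 12 ratios and the 14 pathway and marker lists were chosen with earlier results of these data known, although the rule for the members uses symbols alone, and the symbol Cd58 was not found. Named were all members, the 3 highest and the lowest gene of each pathway list and the 3 highest of each marker list, with exceptions stated; some genes of these lists are not reported here by name. Ratios were tested within libraries by an exact permutation test over the 16 sign patterns, two-sided, with Benjamini-Hochberg adjustment over the 12. Each replicate was compared with the other 3 by edgeR 4.0.16 (TMM, filterByExpr, quasi-likelihood, Benjamini-Hochberg at 0.05), with DESeq2 1.42.0 as an alternative. This takes a single library to vary as the others do. The edgeR step was tested on simulated data. Chi-square values for each pair of libraries, from genes of 40 or more counts, were 11.7 to 26.2 per degree of freedom, so no pair agreed within sampling noise. Such values do not show that the libraries had separate sources. The libraries were treated as 4 replicates, although a shared source of some of them is possible. Floors are 3 counts and, like Poisson intervals, cover counting error only. FPKM, other lengths, scalings, filters and left-out replicates were tried.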

Additional observations from a re-analysis of the deposited data

Results flagged for a closer look

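In 13 of 87 sets of 4 values, for named genes and ratios, a library stood further from its neighbour than Dixon's 95% limit for 4 samples allows; about 1 set in 20 is expected by chance, and genes with a count in a single library always meet it. Itgb2 was at 668 TPM in replicate 4, against 607 to 611 in the others, and Itga3 at 1.67 TPM in replicate 4, against 1.25 to 1.30. The ratio of Itgb2 to its alpha chains was 1.15 in replicate 1, against 1.32 to 1.35. B4galt1 was at 335 TPM in replicate 1, against 373 to 375. Cdh1 was at 0.929 TPM in replicate 4, against 0.485 to 0.555, and Blnk at 0.833 TPM in replicate 1, against 0.211 to 0.232.

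Among the genes named here, 7 had counts in a single library. They were Itga1 at 0.0662 TPM (5 counts), Pf4 at 0.329 TPM (3 counts) and Cdh5 at 0.113 TPM (6 counts) in replicate 1, Itgax at 0.0385 TPM (4 counts), Cma1 at 0.172 TPM (4 counts) and Vwf at 0.0115 TPM (4 counts) in replicate 3, and Ngp at 0.0543 TPM (1 count) in replicate 4.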

How the results depend on the processing

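The count of 20 expressed genes stayed at 20 without any single replicate, at a TPM of 0.5, in 2 libraries, with TPM over protein-coding genes or with 200 bases taken off each length, and was 16 at a TPM of 5 or an FPKM of 1. The mean log2 ratio kept its sign for all 12 pairs under every alternative except that of Itgb2 to its alpha chains, which was -0.74 in counts not divided by length, since Itgal is the longer gene. In such counts Itgb7 exceeded Itga4 and Itgae in 2 of 4 libraries, against 4 of 4 in TPM. Over the bases not shared with another gene, an alternative chosen after seeing the data, Itgal exceeded the other beta 2 alpha chains by 12.21 on the log2 scale, against 13.43 with the deposited length. With 3 libraries the sign-flip test cannot give a p below 0.25. The median coefficient of variation lay between 6.20% and 8.74% when a replicate was left out. Calls among these genes in replicate 1 changed only without replicate 4, for Tln1 and Itgal, and in the other replicates under no alternative. Over all genes the calls also depended on the setting. They were 9 in replicate 1, against 16 with DESeq2, 105 without the filter and 341 without replicate 4, and in replicates 2, 3 and 4 they were 0, 3 and 0, against 60, 35 and 16 without the filter. The causes were not tested. Depth limits the lowest levels, with floors of 0.017 to 0.12 TPM over the 34 genes. No paired analysis was possible because the libraries form 1 group.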

Other observations

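The deposited exon length of a gene sums all its annotated exons, and for several of these genes it is far above that of the longest coding transcript in GENCODE M21. The ratio was 2.30 for Selplg, 2.09 for Itga6, 1.81 for Pecam1, 1.72 for Icam1 and 1.52 for Itgav, beside 1.03 for Itgb2 and 1.00 for Fermt3. Counts were also divided by the longest coding transcript, with the scaling from the deposited lengths of all genes kept and no rescaling to the common total. Itga6 then stood at 54.5, above Itga4 at 35.5, Itgav at 34.3 and Itga5 at 23.0. With the deposited lengths these 4 chains lay within 22.5 to 26.0 TPM. Which transcripts the cells made is not shown by gene-level counts.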
